A study of Mus musculus with 8 samples.

Results

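Regions of liver chromatin that were called open in control mice and not in Alb-D2KO mice differed widely in how much signal they carried, and the regions described here are those with the most. They were chosen by the area under the curve (AUC) that the peak caller gave each region, a significance signal summed over the region. How the caller scales this signal is not given in the lists, and the AUC per base pair lay far below the −log10 p at the summit. A lost region was taken as strong at an AUC of 500 or more. This rule gave 449 strong regions of 8031 lost regions, or 5.59%, and of 8281 regions in the lists of both genotypes. The other 7582 lost regions, with an AUC under 500, are the comparison throughout. Because the AUC chose the members, the AUC, the width and the p at the summit are given as a description of them and not as a result.

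The study compared chromatin accessibility in livers of adult C57BL/6 mice (C57BL/6J in the methods) by ATAC-seq, with 4 control and 4 Alb-D2KO libraries made from 50000 nuclei of frozen liver each. Alb-D2KO mice carry floxed alleles of Dio2, the gene of the type 2 deiodinase (D2), and Cre recombinase under the albumin promoter, so that the gene is inactivated in hepatocytes. The sample titles and the methods describe the controls as Cre mice, without the inactivated Dio2. Regions were called on the libraries of a genotype together, and a control region counted as lost when it overlapped no Alb-D2KO region. The lists hold no value per animal, so that no spread between replicates and no test can be given, and the signal of Alb-D2KO liver inside a lost region is not known from them. The intervals below are 95% Wilson intervals, which cover counting error over regions and not the variation between animals, and the depth of each library is unknown from these lists. In whole liver, fewer hepatocyte nuclei and less accessibility per nucleus cannot be told apart.

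In ATAC-seq a transposase inserts adapters into DNA that is not wrapped tightly in nucleosomes, so that promoters, enhancers and heavily transcribed stretches stand out. D2 converts the prohormone thyroxine into triiodothyronine (T3), which binds thyroid hormone receptors, nuclear receptors that sit on DNA together with the retinoid X receptor and exchange corepressors for coactivators when the hormone arrives. In rodents the liver makes D2 briefly around birth, when hepatoblasts mature into hepatocytes.

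The sequences below show what lies at the summit of a few strong regions, where the signal of the call was highest. Each is a stretch of 120 bases centred on the summit, read 5′ to 3′ on the plus strand of the RefSeq GRCm38.p6 genome (the mm10 build of the lists), and capitals mark matches to the short motifs described further on. The first 4 lie at promoters of metabolic genes: Slc38a3, a glutamine transporter (chr9:107668062-107668181), Soat2, which esterifies cholesterol (chr15:102150716-102150835), Apoa5, an activator of plasma triglyceride breakdown (chr9:46268466-46268585), and G6pc, the last enzyme of glucose production (chr11:101367428-101367547).
Slc38a3: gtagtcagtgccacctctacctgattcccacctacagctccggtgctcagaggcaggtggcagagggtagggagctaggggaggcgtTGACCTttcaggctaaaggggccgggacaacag
Soat2: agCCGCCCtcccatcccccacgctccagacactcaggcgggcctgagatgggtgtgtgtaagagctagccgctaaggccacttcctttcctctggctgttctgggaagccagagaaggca
Apoa5: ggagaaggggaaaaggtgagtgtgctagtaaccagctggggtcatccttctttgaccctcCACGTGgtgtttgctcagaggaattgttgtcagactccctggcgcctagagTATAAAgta
G6pc: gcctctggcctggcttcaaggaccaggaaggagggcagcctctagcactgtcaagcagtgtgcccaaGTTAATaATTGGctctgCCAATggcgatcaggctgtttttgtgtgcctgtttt

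The next 3 belong to regulators and lie away from their promoters: an intron of Hnf4a, a master regulator of hepatocyte identity (chr2:163540797-163540916), a site upstream of Rxra, the retinoid X receptor (chr2:27625061-27625180), and an intron of Foxn3, a forkhead repressor, which holds 5 matches (chr12:99234415-99234534).
Hnf4a: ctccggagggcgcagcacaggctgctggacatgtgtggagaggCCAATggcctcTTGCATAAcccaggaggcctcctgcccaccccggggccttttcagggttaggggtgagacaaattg
Rxra: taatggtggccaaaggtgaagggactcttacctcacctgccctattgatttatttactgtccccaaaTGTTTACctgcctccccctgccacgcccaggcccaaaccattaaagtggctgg
Foxn3: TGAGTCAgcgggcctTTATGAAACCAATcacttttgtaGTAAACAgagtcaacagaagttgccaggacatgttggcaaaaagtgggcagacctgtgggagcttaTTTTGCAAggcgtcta

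The last 4 show the range of base composition and of position. They are the summits of the regions with the highest GC (Skil, chr3:31094603-31094722) and the lowest GC (Fam107b, chr2:3673049-3673168) over their whole length, the broad region past the end of Alas1 (chr9:106231593-106231712), which holds no match, and a region near Thrsp (chr7:97423878-97423997). Thrsp, a classical thyroid hormone-responsive gene, was singled out after its values were seen, and its sequence holds the core motif of nuclear receptors 2 times in the same orientation. The copies lie much farther apart than the 4 bases of the repeat that thyroid hormone receptors prefer. A single core motif was found in 33.6% of strong regions.
Skil: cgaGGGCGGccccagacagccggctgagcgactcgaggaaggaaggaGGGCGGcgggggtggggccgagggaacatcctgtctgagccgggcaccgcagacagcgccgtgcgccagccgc
Fam107b: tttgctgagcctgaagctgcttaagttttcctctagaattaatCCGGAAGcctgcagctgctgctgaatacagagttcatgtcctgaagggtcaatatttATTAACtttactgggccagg
Alas1: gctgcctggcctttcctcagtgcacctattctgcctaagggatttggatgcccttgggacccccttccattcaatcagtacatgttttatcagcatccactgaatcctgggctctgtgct
Thrsp: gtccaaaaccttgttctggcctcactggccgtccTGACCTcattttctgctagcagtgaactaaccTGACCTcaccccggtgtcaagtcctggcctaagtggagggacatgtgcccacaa

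The strong regions had a median AUC of 580 (quartiles 531 and 656), against 272 (230 and 336) in the other lost regions. They were also wide, with a median of 612 bp (quartiles 501 and 776) against 317 bp (238 and 415). Over all widths the median AUC per bp was 0.972 against 0.906, but the AUC per bp fell with width (Spearman's rho −0.723 over all lost regions). At like width the strong regions were higher per bp, as the rule itself brings about. The medians were 1.29 against 0.779 at 300 to 499 bp, 0.966 against 0.618 at 500 to 749 bp and 0.764 against 0.466 at 750 to 999 bp. The −log10 p at the summit had medians of 6.62 and 6.00. The distribution of the AUC had no gap at the threshold. The 3 regions just inside it lay near Gm12536 (500.7), in Gm29427 (500.6) and at Por (500.5), and the 3 just outside lay near Gm14319 (499.7), in Sox5 (499.6) and in Litaf (499.5).

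Wider regions tended to have higher AUCs. Across the 8031 lost regions the AUC and the width had a Spearman's rho of 0.550, and within the 449 strong regions 0.498, both from the same pooled call and given without a test. Of 3431 lost regions narrower than 300 bp, 3 were strong, and of 55 that were 1000 bp or wider, 46 were, or 83.6%. The extremes show how differently an AUC of about 500 can arise. The region at the promoter of Map2k6, a kinase of the p38 pathway, had an AUC of 527 over 238 bp, or 2.21 per bp. The region at the start of Cd244a, an immune cell receptor, had an AUC of 509 over 1621 bp, or 0.314 per bp. Ranking the lost regions by AUC per bp and taking the same number gave a different set, which shared 31 regions with the strong ones and had a median width of 193 bp. The strong regions are therefore those with the largest areas, and a ranking by AUC per bp picks mostly other, narrower regions.

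**Figure D1:**
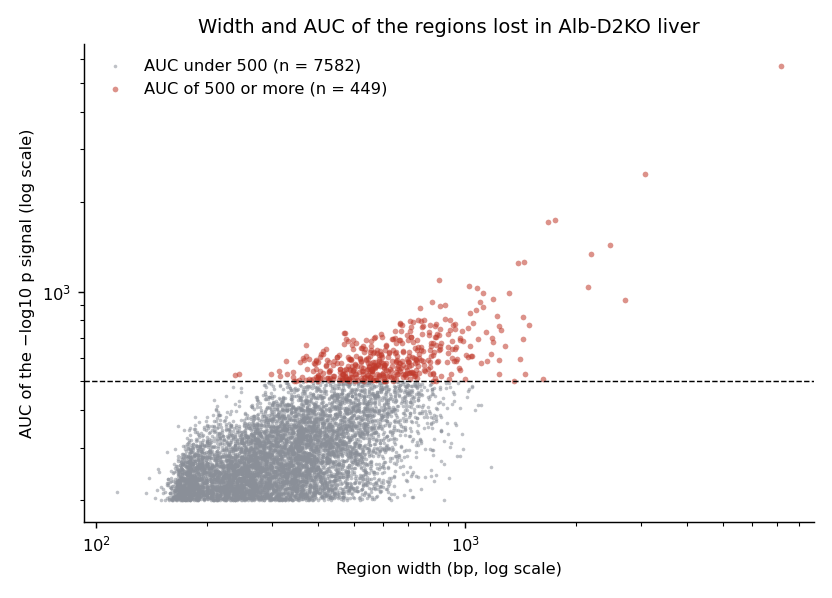
Width of each lost region in bp against its AUC, both on log scales, with the 449 strong regions in red, the 7582 others in grey and the threshold of 500 as a dashed line. The strong regions run from 238 bp to 7182 bp wide, and 46 of the 55 regions of 1000 bp or more lie above the line.

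Promoters made up more of the strong regions than of the others. A region was called a promoter region when it overlapped the 200 bp on either side of an annotated start site, and otherwise fell to exon, intron or intergenic sequence in that order. Of the strong regions 143 were at promoters, or 31.8% (27.7 to 36.3), against 18.7% (17.8 to 19.6) of the others. Introns held 131 of the strong regions, or 29.2% (25.2 to 33.5), against 40.7% (39.6 to 41.8). Exons held 54 (12%, against 10.1%), and intergenic sequence held 121 (26.9%, against 30.5%). Promoters with start sites on both strands were 15 of the strong regions, or 3.34%, against 1.27%. Of promoter regions alone they were 10.5% (6.46 to 16.6) against 6.77% (5.58 to 8.20), with overlapping intervals.

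This difference in promoter share was not seen between regions of like width, a comparison chosen after the values were seen. Among regions of 300 to 499 bp, 21.1% of the strong ones (23 of 109) and 22.1% of the others were at promoters. At 500 to 749 bp the shares were 29.5% (62 of 210) and 33.2%, and at 750 to 999 bp they were 40.7% (33 of 81) and 43.1%, with overlapping intervals in each band. In both sets the promoter share was higher in each wider band. When a region was classed by its summit base alone, 22.3% of the strong regions and 14.7% of the others were at promoters, and within the bands of width the shares again lay close together, at 17.4% and 17.8%, 21.4% and 23.2%, and 25.9% and 25.5%, again higher in each wider band. The set ranked by AUC per bp had a promoter share of 9.13%, against 20% outside it. The lowest AUC of a lost region was 200, so that narrow regions had a high AUC per bp. That set had a median width of 193 bp, against 337 bp outside, and it cannot separate strength from width.

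**Figure D2:**
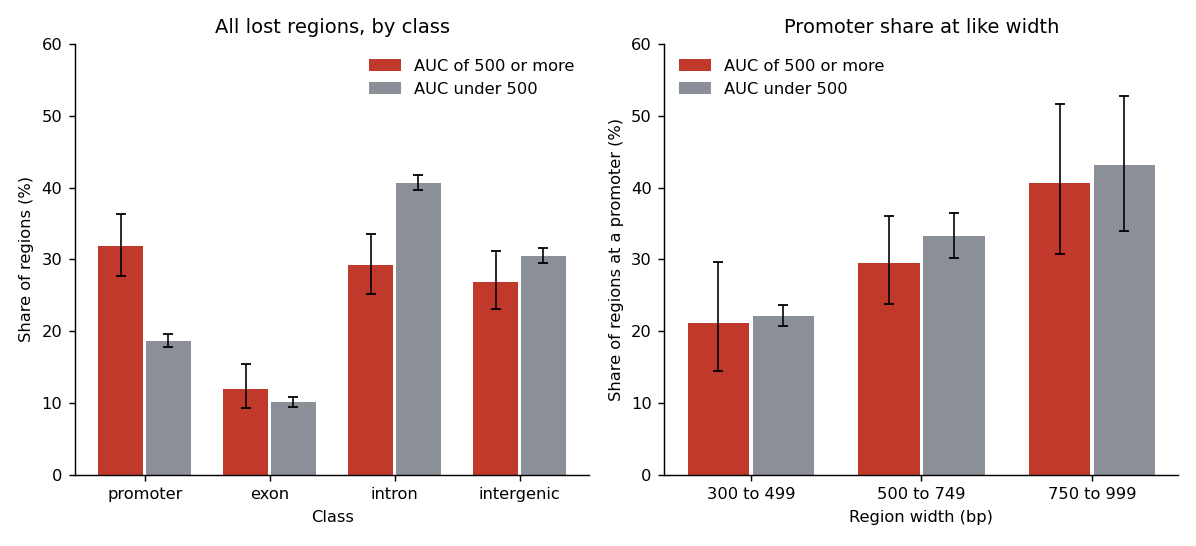
Left, the share of regions in each class for strong (red) and other lost regions (grey). Right, the share at promoters within 3 bands of width, with bars on both sides showing 95% Wilson intervals over regions: the strong regions lead at 31.8% against 18.7% over all widths, and lie between 21.1% and 40.7% against 22.1% and 43.1% within the bands.

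Coding sequence was overlapped by 98 strong regions, or 21.8%, against 10.9% of the others, and untranslated sequence by 30.1% against 15.8%. At like width the shares for coding sequence were 13.8% and 11.5%, 20.5% and 22.4%, and 23.5% and 28.4% from the narrowest to the widest band. Those for untranslated sequence were 21.1% and 18.1%, 27.6% and 28.4%, and 34.6% and 43.1%, so that neither difference held across the bands. The share of strong regions varied between chromosomes, beside 5.59% over all lost regions. Chromosome 19 had the highest share of strong regions among the autosomes, 30 of 321 lost regions or 9.35% (6.62 to 13.0). The single run at Neat1 and its neighbour Gm27702 held 4 and 2 of these 30. Chromosome 11 followed with 50 of 687 or 7.28% (5.56 to 9.47), an interval that includes the overall share. Chromosome 13 had the lowest, 2.54% (1.29 to 4.93), and X had 1 strong region of 40. The Y chromosome had 1 strong region of 2, and the 10 lost regions on unplaced scaffolds held none.

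Base composition differed by little. The median GC content of the strong regions was 53.3% (quartiles 49.1 and 57.6), against 51.9% (47.7 and 56.5) in the others, and over a fixed 300 bp around the summit it was 53.7% against 51.0%. Within promoters the strong regions had a median GC of 59.0% over their whole length and the others 60.2%. Over the fixed 300 bp the order was the reverse, 60.3% and 59.3%. Over whole regions the medians within introns were 51.5% and 50.5%, and within intergenic sequence 51.1% and 50.5%. CpG islands are GC-rich stretches that keep their CpG sites and mark many promoters of broadly used genes. Regions with the composition of such islands (GC of 50% or more and an observed-to-expected CpG ratio of 0.6 or more) were 82 of the strong regions, or 18.3% (15.0 to 22.1), against 14.6% (13.9 to 15.5). Over the fixed 300 bp around the summit, where the width does not enter, the shares were 18.9% (15.6 to 22.8) and 13.5% (12.8 to 14.3).

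Over whole regions within bands of width this order turned, with intervals apart in the widest band only. At 300 to 499 bp 11% of the strong regions and 15.7% of the others were CpG-island-like, with overlapping intervals. At 500 to 749 bp 19.5% (14.7 to 25.4) of the strong regions and 24.3% (21.6 to 27.2) of the others were. At 750 to 999 bp the shares were 16% (9.63 to 25.5) and 34.3% (25.8 to 43.9). Among promoter regions 65 of 143 strong ones, or 45.5%, had this composition, against 51.2%. In the narrow set ranked by AUC per bp 11.6% of regions had it, against 15% outside. Strong promoter regions without such composition included those of Midn, Inhbc, Pde4b and Soat2. At the extremes, the promoter regions of Skil, a repressor of TGF-beta signalling, and Cobll1 had a GC content of 79.7% and 78.3%. The intron of Fam107b and a region near Adh4, an alcohol dehydrogenase of the liver, had 38.2% and 38.9%. Repeats masked in the genome covered a median of 6.85% of a strong region and 5.87% of another.

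Strong regions tended to lie in company. Another lost region lay within 1 kb of 82 of them, or 18.3%, against 9.42% of the others, and within 5 kb of 40.5% against 24.5%. Within bands of width the share with a lost region inside 1 kb was 12.8% and 11%, 17.6% and 12.2%, and 19.8% and 13.7%, the strong regions being higher in each band with overlapping intervals. In the narrow set ranked by AUC per bp the direction turned, with 5.79% against 10.2% outside it, where width and strength are again not separated. The caller numbered its control regions along the genome, so that a number missing from the lost list marks a control region that overlapped an Alb-D2KO region and was kept. By these numbers both neighbours of a strong region were lost in 126 cases, or 28.1% (24.1 to 32.4), against 18.8%, and both were kept in 132 cases, or 29.4%, against 36%. A strong region thus had a kept region as at least 1 neighbour in most cases.

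The strong regions were assigned to 410 genes, and 326 of them overlapped their gene. Among these genes 380 had 1 strong region and 30 had several, which together held 69 strong regions. Neat1, a long noncoding RNA that builds nuclear paraspeckles, had 4, with AUCs of 5697, 1706, 945 and 586, and 3 weaker ones in addition. These 4 covered 10990 bp of the 20771 bp gene. At and just past its 3′ end 2 more strong regions, nearest to the small RNA gene Gm27702, had AUCs of 992 and 920. The run at Neat1 thus continued beyond the annotated gene.

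Mgll, monoacylglycerol lipase, which releases the last fatty acid from stored triglyceride, had 3 strong regions. They lay at the gene's first promoter (682), in an intron 7932 bp from the gene's start (781) and at an internal start site (581), and 4 weaker regions lay along or past the gene. Alas1, the first enzyme of heme synthesis, also had 3, and they formed a run that ended outside the gene. The region past its 3′ end had an AUC of 939 over 2703 bp, with the second lowest AUC per bp of the strong regions, 0.348, and the others had AUCs of 585 and 502 at 2 start sites within the gene. A weaker lost region (283) lay between them and no kept one did. Mtss1, an actin regulator, had AUCs of 770 at its start, 501 and 703 in its introns.

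Rxra, the partner of thyroid hormone receptors on DNA, had 3 strong regions, an intronic one (637) and a pair 51319 bp and 49577 bp upstream of its start (583 and 627). The 3 other regions numbered between the outermost of these were kept in Alb-D2KO liver, so that open chromatin was still called within the locus. Gm31718, a long noncoding RNA gene, had 3 with AUCs of 887, 506 and 534, and Gm20388 had 3 only because its annotated span of 4434882 bp contains many other genes, with 53 of the 76 regions numbered between its outermost strong regions kept.

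Of the genes with 2 strong regions, several act in lipid or glucose metabolism. Lipa, lysosomal acid lipase, had AUCs of 719 at its promoter and 523 upstream. Crat, carnitine acetyltransferase, had 601 in an exon and 548 at a promoter. G6pc, the last enzyme of glucose production, had 577 at its promoter, where the sequence printed above lies, and 510 past its 3′ end. Sdc1, a heparan sulfate proteoglycan that takes up lipoprotein remnants, had 562 and 547 in introns, and Ahsg, which encodes the plasma protein fetuin-A, had 542 at its start and 521 past its end.

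Others act on chromatin, transcription or signalling. Kdm6b, a histone demethylase, had AUCs of 726 and 528, Rere, a transcriptional corepressor, had 775 and 607, and Foxn3 had 686 at a promoter and 567 in the intron shown above. Pim3, a protein kinase, had 612 and 514, and Prkar2a, a regulatory subunit of protein kinase A, had 516 and 507. Nedd4l, a ubiquitin ligase, had 604 and 567, and Fgf1, a fibroblast growth factor, had 609 and 522. The 2 regions of Fgf1 lay 3051 bp and 303 bp from a region open only in Alb-D2KO liver, while the next nearest strong region, by Pdf, lay 68147 bp from such a region. Further genes with a pair were Gm14319 (690 and 672), Nat8f2 (702 and 640), Tnrc18 (596 and 555), Gm16079 (596 and 529), Rai14 (590 and 514), Marc1 (559 and 544), Cd244a (579 and 509) and Fpgs (535 and 518).

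**Figure D3:**
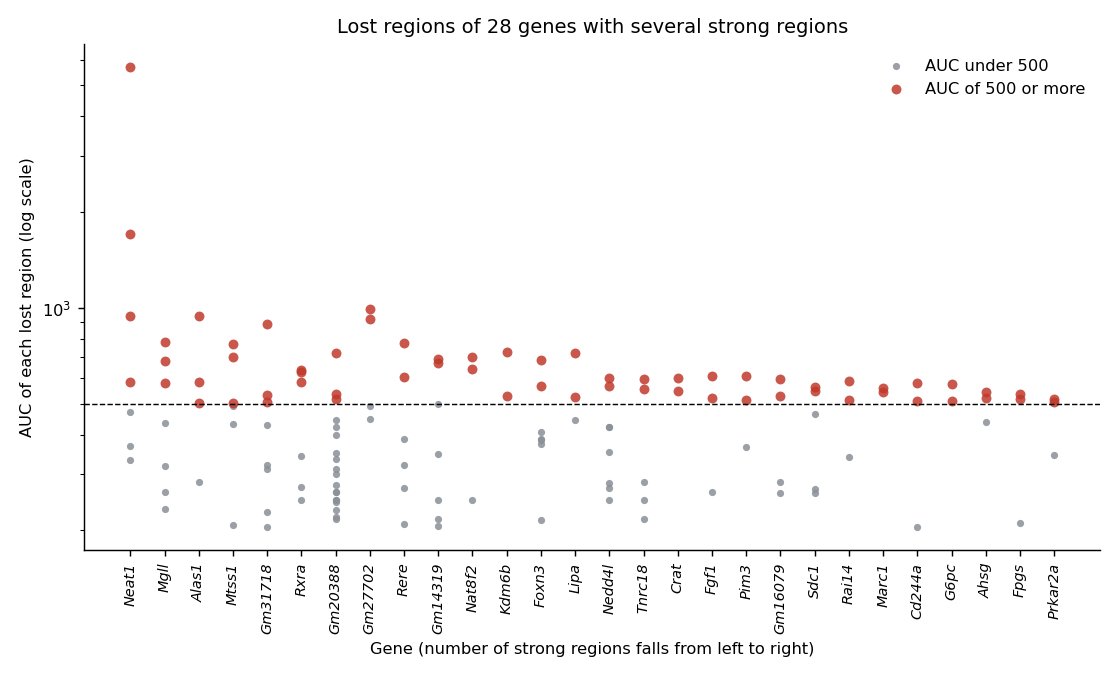
AUC of every lost region, on a log scale, for 28 genes with 2 or more strong regions (red), with their weaker regions in grey and the threshold of 500 as a dashed line. Neat1 stands apart with 5697, and outside Neat1 every strong region of these genes lies under 1000.

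After the 5 regions with the highest AUC, which belong to Neat1, Serpina3k, Cebpa, Neat1 again and a Y-linked pseudogene, the next 25 by AUC ran from 1338 to 801. The highest was at the promoter of Midn, midnolin, over 2191 bp (chr10:80150441-80152631). The rest are grouped here by function and not by rank, beginning with secreted factors of the liver. Apoa1, the main protein of high-density lipoprotein, had 1253 over 1440 bp that overlap its coding sequence and run past its end (chr9:46229732-46231171). The neighbouring genes Inhbe and Inhbc, which encode activin subunits made by hepatocytes, had 1096 in an exon and 869 at a promoter. Angptl4, an inhibitor of lipoprotein lipase, had 899 at its promoter (chr17:33781004-33781884), and Apoe, the ligand for remnant uptake, had 823 in the 1437 bp region past its end.

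Enzymes and transporters were also among these regions, some of them with a higher AUC than the secreted factors. Slc38a3 had 986, Soat2 had 925, Dbi, an acyl-CoA-binding protein, had 880, Gpx1, a glutathione peroxidase, had 804 and Thop1, a peptidase, had 826. The region in Thop1 lay 948 bp from Creb3l3, a hepatocyte transcription factor of lipid metabolism. Among regulators Socs2, which restrains growth hormone signalling, had 1024 at its promoter, 7 bp from the start site to the summit. Pde4b, a cyclic AMP phosphodiesterase, had 848 and Pde4dip had 811. The region assigned to Sphk2, a sphingosine kinase, had an AUC of 1036 over 2146 bp and overlapped the end of Dbp, a clock-driven transcription factor. The others were Rdm1 (1243), Cped1 (1043), Gm2272 (892), Dhx8 (805), Zfp428 (801) and regions of Neat1, Gm27702, Alas1 and Gm31718 given above.

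The ends of genes recurred among these regions. The distance to gene ends was examined after the values were seen. The summit lay within 2000 bp of the end of a protein-coding gene in 56 strong regions, or 12.5% (9.73 to 15.9), against 7.74% (7.16 to 8.36) of the others. The share was 10.7% at an AUC of 500 to 600 and 10.9% at 600 to 750. It was 24.3% (9 of 37, interval 13.4 to 40.1) at 750 to 1000 and 4 of 12 above (interval 13.8 to 60.9). In the set ranked by AUC per bp it was 10.5%. When regions that also lay within 2000 bp of a gene start were left out, 30 strong regions remained, or 6.68% (4.72 to 9.38), against 5.32% (4.84 to 5.85), and the intervals then overlapped. In the same bands of AUC the share was then 5.54%, 6.98%, 8.11% (3 of 37) and 3 of 12. Regions of like width were not compared for this measure.

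Of these 30 regions 19 had their summit past the gene's end and 11 inside it. Several belong to genes that hepatocytes transcribe heavily. Past the end of Cebpa, a driver of hepatocyte maturation, the summit lay at 983 bp. For Alb, the gene of serum albumin, it lay at 1195 bp, with an AUC of 596 over 1411 bp, for Ahsg at 590 bp and for G6pc at 1228 bp. Regulators were also present: Errfi1, an inhibitor of the epidermal growth factor receptor, had its summit 909 bp past the end with an AUC of 739, and Bhlhe40, a repressor of the clock, 1529 bp past the end with 660. Cyp26a1, which degrades retinoic acid, had 564 at 1065 bp. The level of transcription was not measured in these lists, and its part in the result was not tested.

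Liver genes were well represented among the neighbours of strong regions. In 16 lists of genes for liver functions, 52 of 399 distinct genes, or 13.0%, had a strong region within 5 kb of the gene, and 233, or 58.4%, had any lost region. Among all 22028 protein-coding genes the shares were 1.95% and 21.0%. Of genes with a lost region, 22.3% in the lists and 9.28% of all protein-coding genes had a strong one. The 52 genes rest on 57 strong regions, some of which neighbouring genes share, and the lists were chosen with earlier results of these data known, so that these shares are a description. The lists and the other genes were not matched for expression, which these data do not hold. A region within 5 kb can also lie in a neighbouring gene, as the regions counted for Prox1, Serpinf2, Fdps and Asl do.

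The apolipoprotein list stood highest, with a strong region at 9 of 25 genes and a lost region at 22. The genes shared regions: the region of 1253 lies near both Apoa1 and Apoc3, a promoter region of 643 near Apoa1, Apoc3 and Apoa4, and the region of 823 near Apoe and Apoc1. Apoa5 had 738 at its own promoter, Abca1, the cholesterol exporter that loads high-density lipoprotein, had 698 in an intron, and Apom had 569. Plasma proteins had a strong region at 6 of 35 genes, among them Plg, plasminogen (631), and Fetub, fetuin-B (513), beside the region that Serpina3k and Serpina3m share. In the complement and coagulation list it was 4 of 25, Serpinf2 (667), C4b (526) and the clotting factors F7 and F10, which share a region of 522.

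Hepatocyte transcription factors had a strong region at 5 of 23 genes. Beside Cebpa and Creb3l3 these were Hnf4a, with 737 in the intron shown above, Prox1, a homeobox factor of liver development, with 680, and Klf15, a regulator of gluconeogenesis, with 502 at its promoter. Nuclear receptors and coregulators had one at 5 of 32 genes. Ppara, the receptor that drives fatty acid oxidation in fasting, had 730 near the gene over 1139 bp. Nr3c1, the glucocorticoid receptor, had 671 at its promoter, and Nr1h4, the bile acid receptor, had 550 at its promoter. Rxra was also among them.

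In the list of thyroid hormone action 1 of 14 genes had a strong region, Slc16a10, a transporter of thyroid hormone and aromatic amino acids, with 550 in an intron. Of these 14 genes 6 had a lost region of any AUC. At Dio2 itself (chr12:90724552-90738438) no lost region lay within 5 kb or 10 kb, and the nearest strong region was 3832 kb away. The lists therefore do not show the deletion, and the genotype rests on the labels. Thrsp was not in the list, and the summit of its region of 604 lay 6208 bp upstream of its start.

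In the metabolic lists 7.41% to 10.5% of genes had a strong region, against 1.95% of all protein-coding genes. In the synthesis of fatty acids and cholesterol 4 of 40 genes had a strong region: Soat2, Mlxipl, the carbohydrate-responsive transcription factor (629), Fdps, a sterol pathway enzyme (606), and Acaca, which makes malonyl-CoA (543). In fatty acid oxidation 2 of 27 did, among them Cpt1a, which admits fatty acids to mitochondria (547). In glucose production and glycolysis 2 of 19 did, Slc2a2, the hepatic glucose transporter (682), and G6pc. In the urea cycle and amino acid list 21 of 25 genes had a lost region and 2 of 25 a strong one, Asl, argininosuccinate lyase (659), and Hgd (521). Of its genes with a lost region 9.52% thus had a strong one, near the 9.28% of all protein-coding genes with a lost region. Of the cytochrome P450 and drug metabolism list 3 of 30 had one: Cyp27a1, a bile acid enzyme (587), Sult1a1 (509) and Por, the electron donor of these enzymes (501).

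Genes that respond quickly to signals were present as well. The clock list had a strong region at 3 of 19 genes, Dbp, Bhlhe40 and Per2 (536), and the immediate early list at 4 of 34, Btg1 (560), Cdkn1a (554), Dusp1 (544) and Hspa1b (501). The insulin and growth hormone list had 1 of 25, Socs2, and 17 of 25 had a lost region. Of those with a lost region 5.88% had a strong one, against 9.28% of all protein-coding genes with a lost region. The list of nuclear noncoding RNAs had 1 of 10, Neat1. Of the 25 marker genes of liver cells other than hepatocytes, 4 had a lost region and 0 had a strong one, with a median highest AUC of 220 in those 4.

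**Figure D4:**
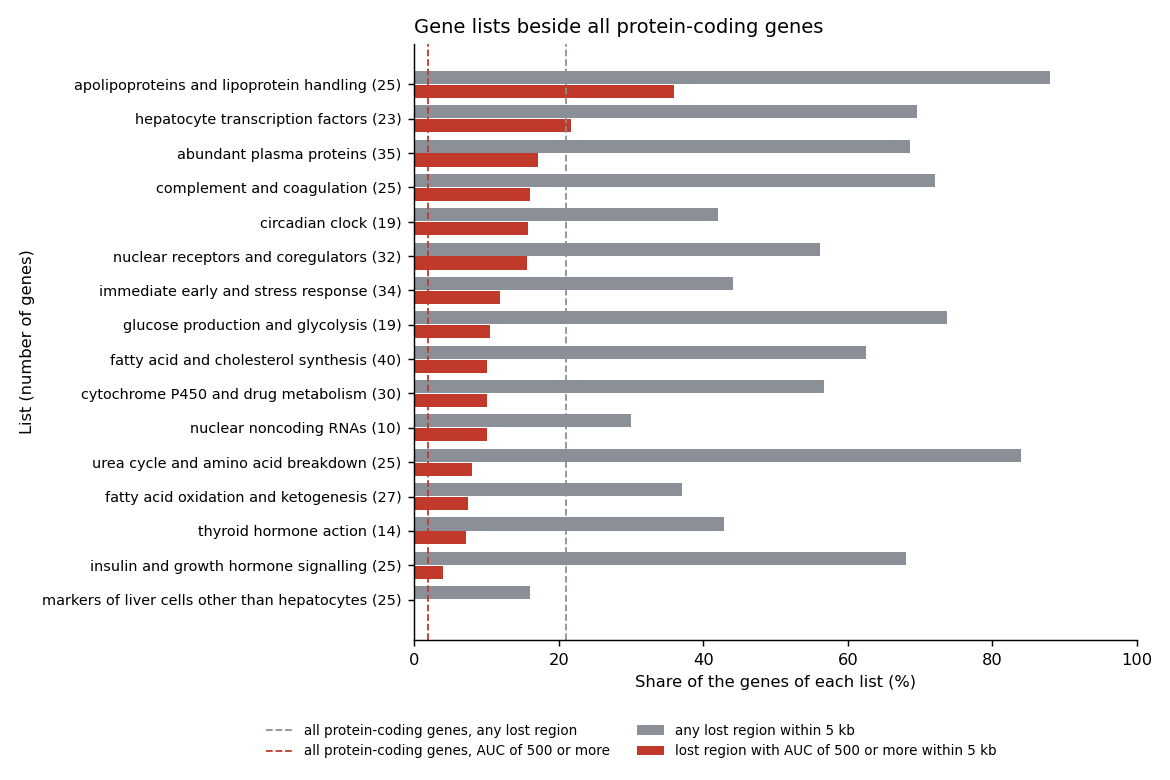
Share of the genes of each list, in percent, with any lost region (grey) and with a strong one (red) within 5 kb, and the same shares over all protein-coding genes as dashed lines at 21.0% and 1.95%. The apolipoprotein list is highest for both, and the list of markers of other liver cells has no strong region among its 4 genes with a lost region.

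Short motifs were counted on both strands of the 300 bp around each summit, in 449 strong regions and 7572 others on assembled chromosomes, and in the 32851 promoters of the RefSeq table. The core motif of nuclear receptors, AGGTCA, as in the Slc38a3 and Thrsp sequences above, was found in 151 strong regions, or 33.6% (29.4 to 38.1), in 29.8% (28.8 to 30.9) of the others and in 16.3% of promoters. Outside promoters it was in 118 of 306 strong regions, or 38.6%, against 32.1%, and at promoters in 23.1% against 20.1%. The GC box of SP and KLF factors, GGGCGG, was found in 22.5% (18.9 to 26.6) of the strong regions, 17.4% (16.5 to 18.2) of the others and 35.7% of promoters. Split by class this difference was small, with 46.9% against 46.4% at promoters and 11.1% against 10.7% elsewhere.

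The ETS core, CCGGAAG, as in the Fam107b sequence, was in 25 strong regions, or 5.57% (3.80 to 8.09), against 3.22% (2.85 to 3.64) of the others and 8.86% of promoters, and 19 of the 25 were promoter regions. For motifs of liver factors the share in the other regions lay within the interval of the strong regions. The forkhead motif TGTTTAC was in 7.57% against 6.60%, the HNF1 motif GTTAAT in 8.91% against 8.80%, the C/EBP palindrome TTGCNNAA in 16% against 18.6% and the HNF4A motif CAAAGTCCA in 1.78% against 2.67%. The same held for the CCAAT box (30.5% against 32.8%), the E-box CACGTG (9.13% against 7.37%), the AP-1 motif TGANTCA (8.46% against 9.88%), the D-box TTATGNAA (6.01% against 4.71%), the TATA box TATAAA (8.91% against 9.15%), the NRF1 motif GCGCATG (1.56% against 1.47%) and the cyclic AMP element TGACGTCA (0.445% against 0.555%). The C/EBP and D-box motifs can match the same bases, as they do in the Hnf4a sequence. In direct repeats, a search added after the values were seen, the spacing preferred by thyroid hormone receptors, DR4, was found in 3 strong regions, or 0.668% (0.227 to 1.95), against 0.806%, and DR1 in 11, or 2.45%, against 1.81%.

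**Figure D5:**
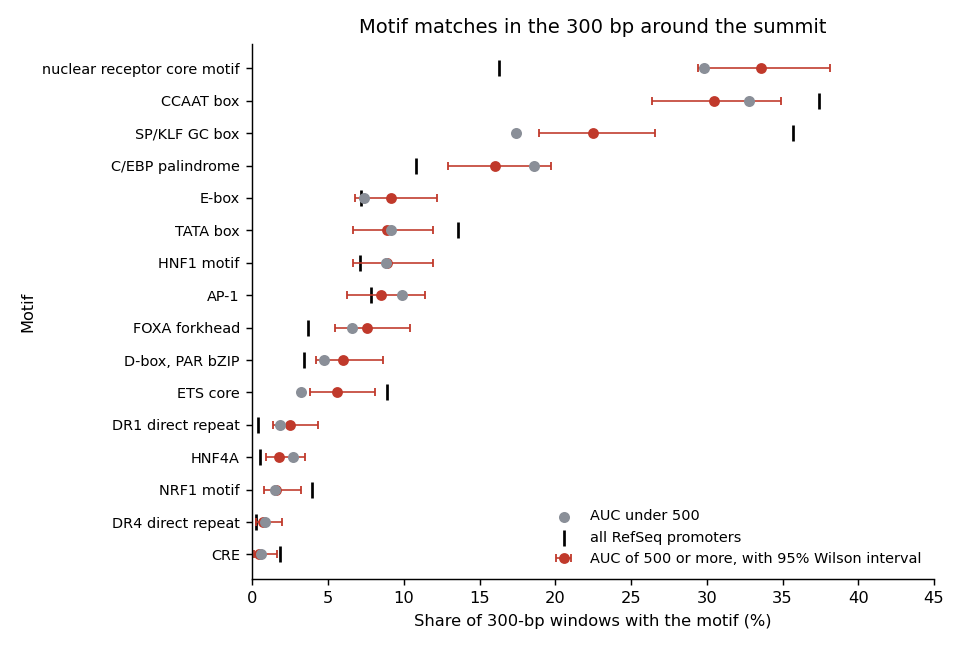
Share of 300 bp windows, in percent, with a match to each motif in strong regions (red points with 95% Wilson intervals), other lost regions (grey points) and all RefSeq promoters (black ticks). In the strong regions the core motif of nuclear receptors is the most frequent, at 33.6%, while in the other 2 sets it is the CCAAT box, at 32.8% and 37.4%, and the grey points of the GC box and the ETS core are the ones outside the red intervals.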

How the data were processed

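The 4 control and 4 Alb-D2KO libraries were aligned to mm10 with BWA (0.7.17) and open regions were called with Genrich (0.6), per the labels and the methods. The deposited lists give for each region an AUC, a signal summed over the region, and the −log10 p and −log10 q of its summit, all written by the authors' caller on pooled libraries. Read depth per library is not given in the sources used here, and the small number of pooled libraries limits precision. Regions of one genotype that overlapped the other had been removed by the authors. The deposited score column was not used.

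Here each region was classed with GENCODE M21 (the study names vM24 for its sites) and given 1 gene: an overlapping gene first, protein-coding before others, otherwise the nearest. Composition was read from GRCm38.p6 with pysam (0.24.0), and intervals were computed with scipy (1.17.1). The genes named are those with 2 or more strong regions, ranks 6 to 30 by AUC, up to 4 examples for each of 16 lists, the edges of the threshold and the extremes of GC and of AUC per bp, and Dio2. Members and lists were chosen with earlier results of these data known. The counting steps were tested on simulated data. Because calls were pooled, no test was run. Alternatives covered the AUC threshold, the promoter window, merging, the gene rule, distances, motif windows and ranking by AUC per bp. Some results are not reported here.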

Additional observations from a re-analysis of the deposited data

How the results depend on the processing

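Ranking by AUC per bp moved most values: median width to 193 bp, promoter share to 9.13% (20% outside), GC to 52.7%, CpG-island-like share to 11.6% (15% outside), the share with a lost region within 1 kb to 5.79% (10.2% outside), and the motifs more frequent in strong regions to 2 of 14. The 3 shares given with a value outside the set turned in direction. The regions outside that set had a median width of 337 bp, so that it does not separate strength from width. Minimum AUCs of 400, 600 and 1000 gave 1273, 178 and 12 regions, median widths of 524, 756 and 1711 bp, 145, 9 and 1 genes with several regions, and 94, 29 and 8 list genes. At 600 and 1000 the median GC was 54.1% and 55.2%. The promoter share was 43.0% and 57.0% with windows of 1000 and 3000 bp, 22.3% by the summit base, 26.7% with protein-coding genes alone, and, in an alternative added after seeing the data, 21.1% and 40.7% for strong regions of 300 to 499 bp and 750 to 999 bp. A lost region lay within 5 kb of 40.5% and within 10 kb of 52.8%. Merging regions within 100 bp changed nothing, since the caller had already merged them. No library could be left out of the pooled calls. No paired analysis was possible because the lists hold no value per library. Depth limits could not be set.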

Other observations

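The reverse list, regions open only in Alb-D2KO liver, held 250 regions, of which 3 had an AUC of 500 or more. These were an intergenic region near Gm13228 with an AUC of 508 and neighbouring regions by the kinase genes Smok2a and Smok2b with 511 and 536. Repeats masked in the genome covered 19.5%, 5.46% and 33.0% of them.

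Over the whole set, the 449 strong regions covered 315 kb, which is 10.8% of the lost base pairs and 11.4% of the summed AUC. With 5.59% of the regions, they therefore held a share of the summed AUC close to their share of the lost sequence. The 12 regions with an AUC of 1000 or more had a median width of 1711 bp, against 558 bp for the 271 regions from 500 to 600.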
